A study of Mus musculus with 10 samples.

Results

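The replication-dependent histone genes are the clustered genes that make the bulk histone proteins H1, H2A, H2B, H3 and H4. Every annotated mouse gene whose GRCm38 symbol begins with Hist1h, Hist2h, Hist3h or Hist4h was taken: 70 symbols matched, 3 pseudogenes were removed, and 67 of the 53379 counted genes remained. By class these were 6 H1, 18 H2A, 18 H2B, 12 H3 and 13 H4 genes. By genomic cluster, 54 lie in Hist1 on chromosome 13, 10 in Hist2 on chromosome 3, 2 in Hist3 on chromosome 11 and 1 (Hist4h4) on chromosome 6.

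The study sequenced total RNA from sorted spleen dendritic cells of 16-week-old C57BL/6 mice. Wild-type mice (WT, Atg16l1 +/+) and knockout mice (KO, Atg16l1 -/-) were compared. Atg16l1 encodes a protein that autophagy needs to attach the ubiquitin-like protein LC3 to membranes. No label names a promoter, a Cre driver or a cell type restricting the deletion. The series title speaks of a model of atherogenesis, while the sample labels give no diet and no allele besides Atg16l1. Each genotype was sorted into a CD11b-positive CD8-negative and a CD11b-negative CD8-positive population, labelled CD11b and CD8 below. At each label there were 3 WT and 2 KO libraries. Per the labels the cells came from individual mice. The labels do not say whether both populations of a numbered library share a mouse.

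Histone genes of this kind are transcribed mainly in S phase, when new DNA is wrapped into nucleosomes. Their mRNAs lack introns and usually end in a conserved stem-loop in place of a poly(A) tail; the stem-loop is bound by the protein Slbp and governs processing, translation and decay of the mRNA. Libraries made from total RNA can hold such transcripts, whereas selection on poly(A) would lose most of them.

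The stem-loops show how alike the members are and where they differ, so they are given before the values. The histone stem-loop motif, which fixes the outer and innermost bases of the stem and leaves the stem bases between them and some loop bases free, was searched on the sense strand of transcripts annotated by GENCODE. It was found in 46 of 67 members (68.7%) against 201 of 55450 annotated genes (0.362%). By class, 4 of 6 H1, 11 of 18 H2A, 10 of 18 H2B, 9 of 12 H3 and 12 of 13 H4 genes held it. Of the 21 members without it, 11 are annotated as coding sequence alone, so the region that would hold the motif was not searched there. The variant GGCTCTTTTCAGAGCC was the commonest, with 26 members, ahead of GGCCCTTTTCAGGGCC with 7 and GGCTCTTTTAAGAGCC with 6. Hist1h4b, the H4 gene on which the genotype results turn, shared its variant with Hist1h4j alone. The sites below run 5′ to 3′ as DNA, with the stem-loop in capitals and 5 flanking bases on each side.
Hist1h1c: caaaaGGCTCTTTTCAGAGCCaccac
Hist1h2bb: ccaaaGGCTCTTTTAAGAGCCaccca
Hist1h4c: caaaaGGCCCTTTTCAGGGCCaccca
Hist2h4: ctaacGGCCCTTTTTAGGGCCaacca
Hist1h4j: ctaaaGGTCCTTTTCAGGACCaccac
Hist1h4b: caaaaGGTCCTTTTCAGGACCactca

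In Hist1h4b the stem-loop began 36 bases after the coding sequence and 28 bases of annotated transcript followed it. Over the members holding the motif, the annotated transcript ran on for 3 to 4884 bases past it (median 91). Hist4h4 had 2445 such bases and Hist1h1c 840.

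Upstream sequence was available in RefSeq (GRCm38.p6) for 62 of the 67 members. It was searched on both strands over the 250 bases before the start used there, which can differ from the GENCODE start. TATAA, the core of the TATA box, was present in 80.6% of members and in 28% of all 27025 promoters of that length. CCAAT was present in 85.5% of members against 41.1%, and every H1, H2A, H2B and H3 promoter held it. Only 3 of 12 H4 promoters (25%) held CCAAT. The octamer ATTTGCAT, known from H2B promoters, was present in 22.6% of members against 2.0% of all promoters, in 7 of 18 H2A and 7 of 16 H2B promoters and in no H1, H3 or H4 promoter. The H4 promoters below show this contrast within the class: both hold TATAA, and only that of Hist1h4d holds CCAAT. A match anywhere in the stretch was counted, which does not place a TATA box at the start. The TATAA matches lie farther from the end of the stretch in Hist1h4b than in Hist1h4d. Both stretches end before the GENCODE starts of these genes, 23757013 and 23581598, and the bases between were not searched. Capitals mark matches to TATAA or CCAAT on either strand.
Hist1h4b, chr13:23756687-23756936, plus strand: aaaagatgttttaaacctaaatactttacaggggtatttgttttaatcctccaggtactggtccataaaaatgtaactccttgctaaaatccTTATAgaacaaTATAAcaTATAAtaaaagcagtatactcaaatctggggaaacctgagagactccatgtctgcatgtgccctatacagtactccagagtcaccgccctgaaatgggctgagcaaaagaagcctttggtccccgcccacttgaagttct
Hist1h4d, chr13:23581318-23581567, plus strand: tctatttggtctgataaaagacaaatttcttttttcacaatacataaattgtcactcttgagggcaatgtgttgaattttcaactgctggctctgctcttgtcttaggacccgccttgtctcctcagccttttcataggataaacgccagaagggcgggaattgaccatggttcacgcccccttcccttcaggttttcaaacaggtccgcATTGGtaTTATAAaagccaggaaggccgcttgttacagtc

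The near-identity of members limits what a count per gene means. Coding sequences of H4 genes were 85.4% to 100% identical in pairs (median 93.9%), and those of the 408-base H3 genes 93.6% to 99.8% (median 97.5%). Reads that mapped to several loci were left out of the gene counts by the submitters' counting, so each value rests on the part of a gene that no other gene shares. That part, as the share of 50-base windows found in no annotated transcript of a gene elsewhere, had a median of 53% over the 67 members. It was highest in H1 (median 98.8%) and lowest in H2A (27%). Levels of single H2A, H2B, H3 and H4 genes are therefore uncertain, and the sums by class are lower limits.

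The libraries held 9467704 to 13768884 gene counts each, and the histone genes took 14352 to 27431 of these, or 0.129% to 0.263%. The share was highest in CD8 WT 3, with an exact (Clopper-Pearson) 95% interval of 0.260% to 0.266% that covers counting error only. Atg16l1 was at 24.1, 32.7 and 13.3 counts per 1000000 (CPM) in CD11b WT 1 to 3 and at 3.03 and 1.83 in CD11b KO 1 and 2. At label CD8 it was at 19.6, 15.2 and 17.5 CPM in WT and 1.73 and 3.31 in KO, so the genotype labels held in all 10 libraries. The subset labels did not: Xcr1, a marker of type 1 conventional dendritic cells, was at 290 to 442 CPM in libraries labelled CD11b and at 7.14 to 11.3 in those labelled CD8. Itgam, which encodes CD11b itself, was at 1.58 to 2.73 CPM in libraries labelled CD11b and at 76.1 to 104 in those labelled CD8. Groups keep the name of their label here, and a direction between subsets is a direction between libraries so labelled. Libraries CD11b WT 1, with counts for more genes than any other (20918), and CD8 KO 2, with the most B cell marker RNA, stood apart.

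Together the histone genes were at 1740, 1338 and 1864 summed CPM in CD11b WT 1 to 3 and at 1448 and 1461 in CD11b KO 1 and 2. At label CD8 they were at 1898, 2004 and 2596 CPM in WT 1 to 3 and at 2039 and 2062 in KO 1 and 2. KO lay within the range of WT at both labels, and every library labelled CD8 was above every library labelled CD11b. The group means were 1647 ± 275 CPM (SD, n = 3) in CD11b WT, 1455 ± 9.22 (SD, n = 2) in CD11b KO, 2166 ± 376 (SD, n = 3) in CD8 WT and 2050 ± 16.3 (SD, n = 2) in CD8 KO. In RNA from a sorted population, fewer cells in S phase and less histone mRNA per cell cannot be told apart. CD8 WT 3, the highest library for histone genes, was also the highest for S phase genes (1481 CPM against 1103 to 1349 in the other 9 libraries) and for mitosis genes (1553 CPM against 1044 to 1400).

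**Figure D1:**
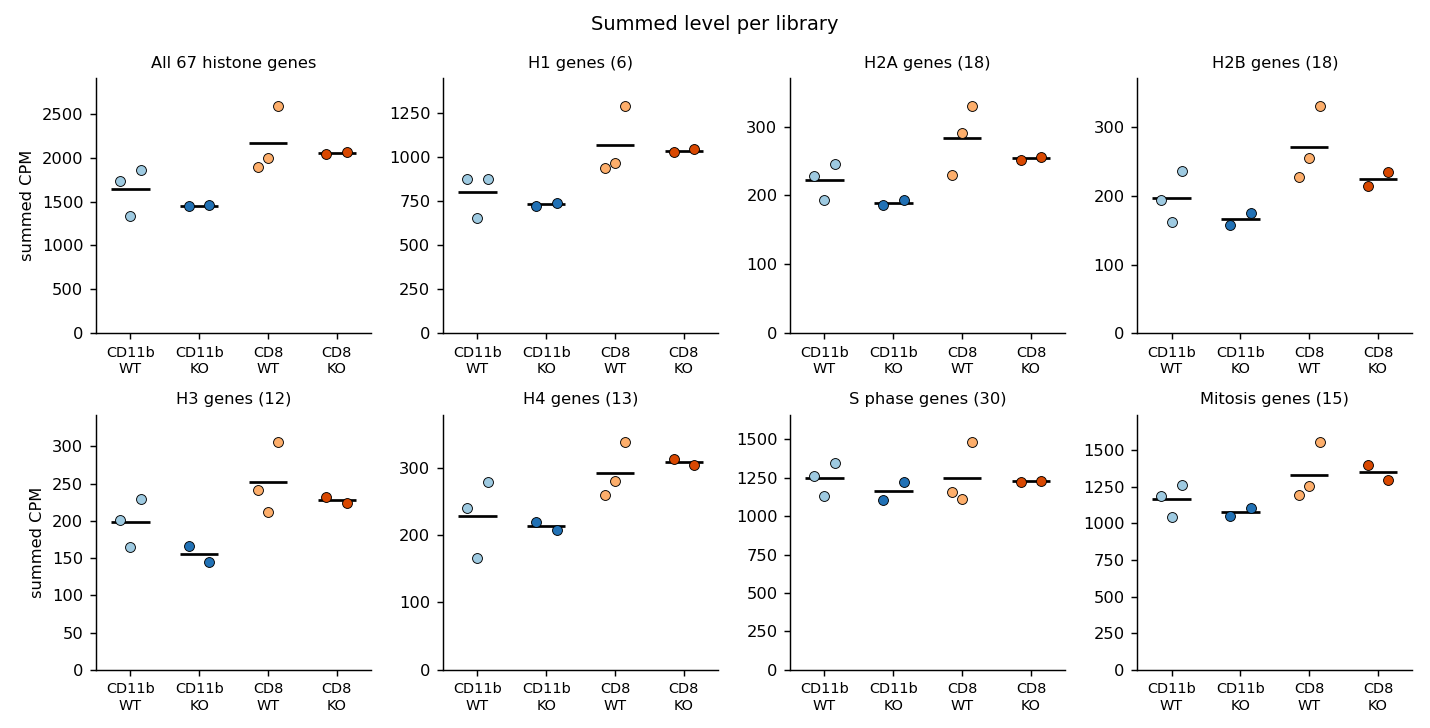
Summed CPM per library (points) and group mean (horizontal lines) of all 67 histone genes, each class, 30 S phase genes and 15 mitosis genes, by group on the x axis. Every library labelled CD8 exceeds every library labelled CD11b for all histone genes together (1898 to 2596 against 1338 to 1864 CPM), while the S phase sums of the labels overlap. The mitosis sums of the labels overlap in WT. In KO they do not, at 1053 and 1105 CPM at label CD11b against 1400 and 1298 at label CD8.

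The 6 linker histone genes gave close to the same share of histone CPM in every library, 46.9% to 50.6%. H2A genes gave 12.1% to 14.5%, H2B 10.5% to 12.8%, H3 9.93% to 12.7% and H4 12.4% to 15.4%. The linker histone Hist1h1c had the highest level per kilobase of exon, 283 CPM per kilobase on average over the 10 libraries, followed in its class by Hist1h1b (119) and Hist1h1e (79.0). Levels per kilobase depend on the annotated exon length, which was 312 bases for Hist1h4k and 7425 for Hist1h1d. The latter had a mean of 187 CPM but 25.2 CPM per kilobase. The order of members is therefore in part one of annotated length. Among H2A genes Hist1h2ak (163 CPM per kilobase), Hist1h2af (133) and Hist2h2ac (85.3) led. Hist2h2bb (120), Hist1h2bb (68.9) and Hist1h2bg (50.9) led the H2B genes. Per kilobase the leading H3 genes were Hist1h3b (93.5), Hist1h3e (48.5) and Hist1h3f (25.9), and the leading H4 genes Hist1h4d (91.8), Hist1h4b (79.2) and Hist1h4k (51.7). These means pool WT and KO libraries. Hist1h4b was at 56.95 in CD11b WT, 99.3 in CD11b KO, 59.77 in CD8 WT and 121.7 in CD8 KO. In the same order Hist1h4d was at 94.3, 77.84, 93.38 and 99.61. Core histone proteins form the nucleosome core: H3 and H4 as a tetramer, H2A and H2B as dimers, with H1 on the linker DNA.

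**Figure D2:**
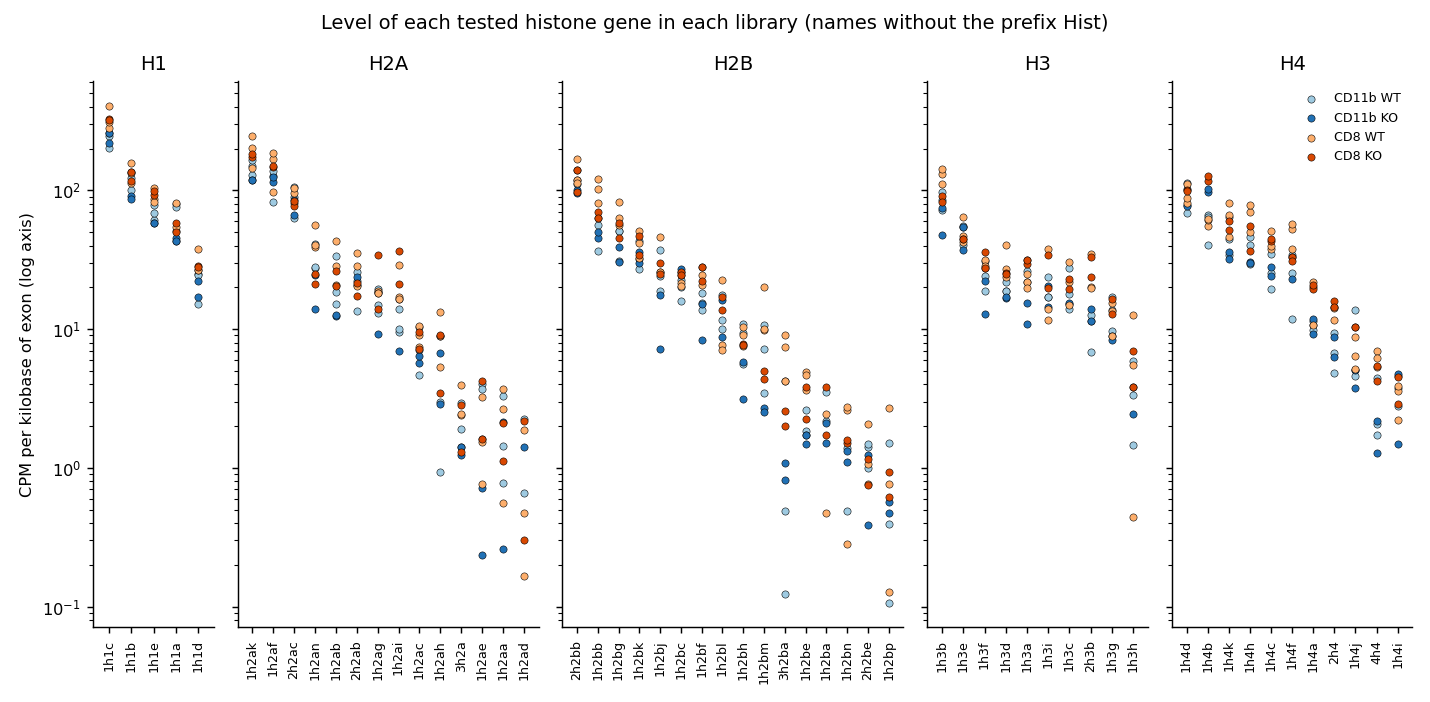
CPM per kilobase of exon (log axis) of each of the 56 tested histone genes in each of the 10 libraries, coloured by group; counts of 0 are not drawn on the log axis. Hist1h1c is the highest by its mean, and in the H4 panel Hist1h4b has its KO points above its WT points at both labels.

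A test was possible for 56 members, since 11 did not pass the filter on low counts. Of those 11, 6 were at 0 counts in all 10 libraries: Hist2h2aa1, Hist2h2aa2, Hist2h3c1, Hist1h2bq, Hist1h2ap and Hist1h2br. Hist2h2aa1 and Hist2h2aa2 have identical coding sequences, as do Hist1h2ao and Hist1h2ap, Hist1h2bq and Hist1h2br, and Hist1h4m and Hist1h4n. Counts of 0 in such copies do not show absence, because a read they share is counted to neither. Hist2h3c1, with an annotated coding sequence of 543 bases, was not compared with the 408-base H3 genes. All 1825 of its exon bases overlap the gene Gm20634 on the same strand, so its 0 does not show absence either. Hist1h1t, the linker histone of the testis, had 37 counts in all, at most 11 in a library, although all its 50-base windows were unique. The other untested members were Hist2h3c2 (22 counts), Hist1h2ao (7), Hist1h4m (26) and Hist1h4n (19).

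Between KO and WT at label CD11b, no histone gene passed the threshold, an edgeR quasi-likelihood adjusted p under 0.05 over all 14528 genes tested. The count was 0 of 56 members, where 21 genes of all tested passed (0.145%). At an unadjusted p under 0.05 there were 12 members (21.4%, against 6.42% of all genes), 2 of them higher (against 2.9%) and 10 lower (against 3.51%). DESeq2 and limma-voom also called 0 members. Of the 56 members, 11 had a log2 fold change above 0 (19.6%, against 48.9% of all genes) and 45 one below 0. Their median was -0.30, and that of all genes tested -0.0073. KO libraries lay below all WT libraries for 14 members (25%, against 10.1% of all genes) and above them for 2 (3.57%, against 10.3%). By class the median log2 fold change was -0.25 for H1, -0.30 for H2A, -0.35 for H2B, -0.30 for H3 and -0.27 for H4. Under all 20 alternatives the members' median was negative. Leaving out CD11b WT 2 gave the lowest value (-0.40) and leaving out CD11b WT 3 the highest (-0.16).

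Of the 5 members with the smallest p at label CD11b, only Hist1h4b was higher in KO. Hist1h3a was at 16.7, 11.6 and 14.04 CPM in WT and at 5.85 and 8.25 in KO (-0.997 on the log2 scale, SE 0.30, edgeR adjusted p = 0.4348). Hist1h1b, the linker histone H1.5, was at 91.4, 75.0 and 100.4 CPM in WT and 67.3 and 64.8 in KO (-0.43, SE 0.15, edgeR adjusted p = 0.6155). KO lay below WT without overlap for both genes. Hist1h2bj stood at 11.2, 8.68 and 17.1 CPM in WT and 3.33 and 8.17 in KO, again without overlap (-1.08, SE 0.39, edgeR adjusted p = 0.6155). Hist1h2bh was at 15.7, 9.35 and 18.1 CPM in WT and 5.25 and 9.75 in KO, where the groups overlapped (-0.93, SE 0.33, edgeR adjusted p = 0.6155). None of these differences passed the threshold.

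Hist1h4b, which encodes the core histone H4, was higher in KO at both labels and passed the threshold at label CD8. The gene lies on the plus strand at chr13:23757013-23757409 (GRCm38), a single exon with a 309-base coding sequence, with Hist1h3b and Hist1h4a as the nearest members on either side. At label CD8 it was at 22.1, 24.4 and 24.7 CPM in WT 1 to 3 and at 46.1 and 50.5 in KO 1 and 2. The underlying counts were 205, 269 and 261 in WT and 560 and 580 in KO, so the groups were far apart. KO was 2.04-fold WT (1.02 on the log2 scale, SE 0.20, edgeR adjusted p = 0.02694, higher in both KO libraries than in all 3 WT libraries). It was the 1 member called among 56, in a comparison that called 21 of 14528 genes (0.145%), 9 of them higher (0.0619%). At label CD11b Hist1h4b was at 26.2, 16.1 and 25.5 CPM in WT and 38.4 and 40.5 in KO, again without overlap. The counts were 345, 214 and 274 against 380 and 486, the difference was 1.75-fold (log2 fold change 0.80, SE 0.20), and it did not pass the threshold (edgeR adjusted p = 0.2012). Among tested members, 2 were higher in KO without overlap at both labels: Hist1h4b and the H2B gene Hist1h2bc, which was not called. Of all genes, 10.3% were higher in KO without overlap at label CD11b and 12.1% at label CD8. The share higher at both labels was not counted, so this does not set these members apart from other genes. Hist1h2bc was at 23.4, 18.5 and 26.2 CPM in CD11b WT and 30.1 and 31.3 in CD11b KO. At label CD8 it was at 24.95, 23.81 and 28.29 CPM in WT and 29.81 and 28.31 in KO.

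The call of Hist1h4b at label CD8 rested on every library of that comparison. The edgeR adjusted p was 0.0832, 0.08612 and 0.1027 without CD8 WT 1, 2 or 3, and 0.069 and 0.4116 without CD8 KO 1 or 2. Without both libraries that stood apart, CD11b WT 1 and CD8 KO 2, it was 0.3384. The log2 fold change itself stayed between 0.96 and 1.09 over the 20 alternatives.

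No other H4 gene passed the threshold between KO and WT at either label. Hist1h4j, which carries the same stem-loop variant as Hist1h4b, was at 3.996, 4.98 and 6.81 CPM in CD8 WT and 7.99 and 8.01 in CD8 KO, higher without overlap (0.60 on the log2 scale, SE 0.47, edgeR adjusted p = 0.9363). At label CD11b it was at 3.95, 3.55 and 10.6 CPM in WT and 3.94 and 2.92 in KO, with overlap (-0.81, SE 0.50, edgeR adjusted p = 0.8376). Hist1h4f was lower in CD8 KO than in CD8 WT without overlap (-0.62, SE 0.35, edgeR adjusted p = 0.8371), and the genotypes overlapped at label CD8 for the other tested H4 genes. Summed without Hist1h4b, the 12 other H4 genes were at 238, 256 and 313 CPM in CD8 WT and 268 and 254 in CD8 KO, so the genotypes overlapped. At label CD11b they were at 214, 150 and 253 CPM in WT and 181 and 168 in KO, which also overlapped. Hist1h4b made up 7.31% to 8.69% of all H4 counts in CD8 WT and 14.7% and 16.6% in CD8 KO. In CD11b WT its share was 9.14% to 10.9%, and in CD11b KO 17.5% and 19.4%. The exact 95% interval of the lowest KO share was 13.6% to 15.8% (CD8 KO 1) and that of the highest WT share 9.85% to 12.1% (CD11b WT 1). Every KO library thus lay above every WT library in this share, in intervals that cover counting error only.

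Counting limits apply to Hist1h4b itself. Of its 50-base windows 45.4% were unique, and its coding sequence differed from that of Hist1h4a at 10 of 309 bases and from that of Hist4h4 at 44. The antisense gene 4930558J22Rik overlaps it and had 1 count in all 10 libraries. Reads mapping to several loci were 21.7% and 21.9% of all reads in CD8 KO against 23.6% to 24.6% in CD8 WT, and 23.3% in both CD11b KO libraries against 23.9% to 25.5% in CD11b WT. The part of this difference in the values of Hist1h4b was not tested. Its neighbours were not higher in KO without overlap at label CD8. Hist1h4a was at 5.72, 10.8 and 11.8 CPM in CD8 WT and 10.5 and 11.2 in CD8 KO, within the WT range. The mean of Hist1h4a was 10.8 CPM in CD8 KO against 9.44 in CD8 WT. Hist1h3b was at 80.8, 68.6 and 88.7 CPM in CD8 WT and lower, at 56.4 and 51.5, in CD8 KO.

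**Figure D3:**
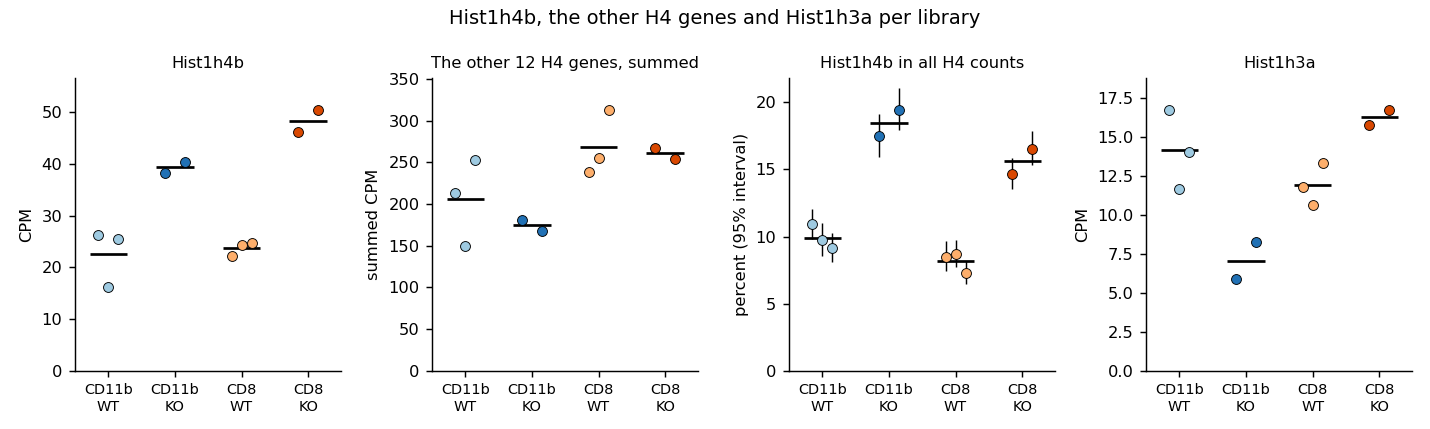
Per library (points; horizontal lines are group means), from left to right: CPM of Hist1h4b, summed CPM of the other 12 H4 genes, percent of all H4 counts from Hist1h4b with exact 95% intervals, and CPM of Hist1h3a, by group. In WT Hist1h4b spans 16.1 to 26.2 CPM and in KO 38.4 to 50.5, whereas the sums of the other H4 genes overlap between genotypes.

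At label CD8 no other member passed the threshold. Of the 56, 5 had an unadjusted p under 0.05 (8.93%, against 6.52% of all genes). Hist1h4b included, 21 members were above 0 (37.5%, against 50% of all genes) and 35 below. The median log2 fold change was -0.12 over the members and 0.00033 over all genes. This median turned to 0.087 without CD8 WT 3, the library highest in histone and cell cycle genes, and to 0.068 with the replicate number as a block. KO lay below WT without overlap for 6 members (10.7%, against 11.9% of all genes) and above it for 4 (7.14%, against 12.1%). Class medians were -0.093 for H1, -0.19 for H2A, -0.26 for H2B, 0.025 for H3 and 0.093 for H4.

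After Hist1h4b, the 4 members with the smallest p at label CD8 were lower in KO without overlap, and none passed the threshold. Hist1h3b, whose levels are given above, gave -0.56 on the log2 scale (SE 0.18, edgeR adjusted p = 0.4054). Hist1h2an was at 15.2, 15.9 and 22.2 CPM in CD8 WT and 9.88 and 8.27 in CD8 KO (-0.97, SE 0.32, edgeR adjusted p = 0.4423). Hist1h2bb was at 41.4, 51.7 and 61.2 CPM in CD8 WT and 35.4 and 32.1 in CD8 KO (-0.61, SE 0.21, edgeR adjusted p = 0.5154). Hist1h2bm, at 5.18, 5.25 and 10.6 CPM in CD8 WT and 2.31 and 2.61 in CD8 KO, gave -1.51 (SE 0.58, edgeR adjusted p = 0.6104). All of these but Hist1h3b, a core H3 gene, encode H2A or H2B. Hist1h2an and Hist1h2bm were also lower in KO without overlap at label CD11b, with log2 fold changes of -0.73 (SE 0.32) and -1.43 (SE 0.60). Of all genes, 10.1% were lower in KO without overlap at label CD11b and 11.9% at label CD8. The share lower at both labels was not counted.

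**Figure D4:**
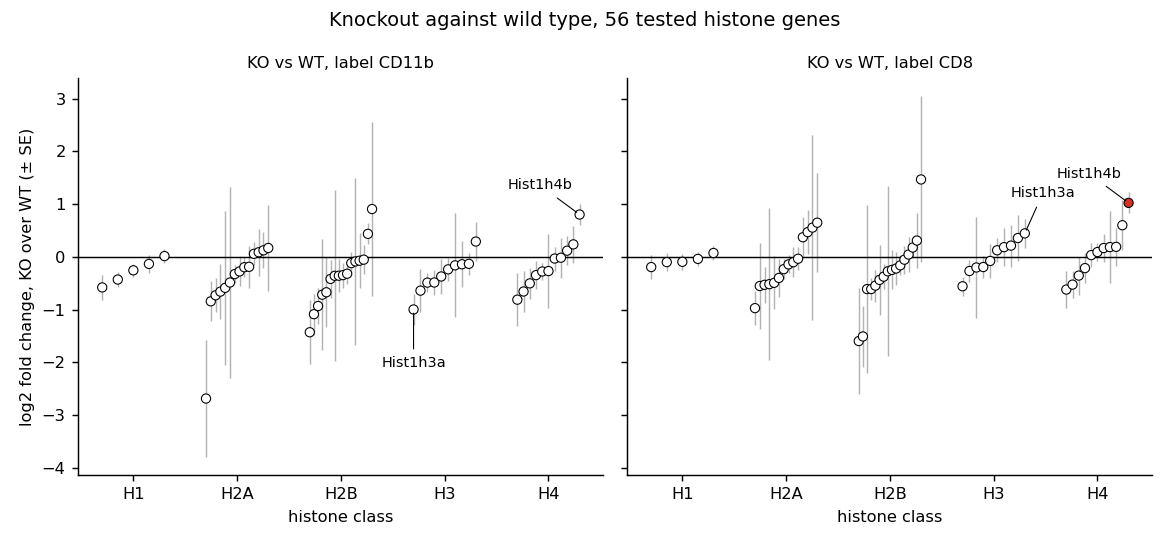
Log2 fold change of KO over WT with its standard error for the 56 tested histone genes, ordered within each class, at label CD11b (left) and label CD8 (right); filled points passed an edgeR adjusted p under 0.05. At label CD11b 45 of 56 points lie below 0 and none is filled; at label CD8 the single filled point is Hist1h4b.

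A test of whether the KO effect differed between the labels called 0 of 56 members, where 3 of 14528 genes passed (0.0206%); 2 members had an unadjusted p under 0.05 (3.57%, against 5.46%), and DESeq2 and limma-voom called 0. Hist1h3a came nearest. It was lower in KO at label CD11b, as given above, and higher at label CD8, where it was at 11.8, 10.6 and 13.3 CPM in WT and 15.7 and 16.7 in KO. The genotypes overlapped at neither label, and Hist1h3a was the 1 member of 56 to show opposite directions in this way. Of all genes, 10.1% were lower in KO without overlap at label CD11b and 12.1% higher at label CD8. How many genes showed opposite directions was not counted, so this does not set Hist1h3a apart from other genes. The difference of the effects on Hist1h3a was -1.44 on the log2 scale (SE 0.41, edgeR adjusted p = 0.7258), which did not pass. Hist1h2ae, with 177 counts in all, followed (-3.33, SE 1.43, edgeR adjusted p = 0.866). Hist1h4j, Hist1h3f and Hist1h1e came next, at -1.41 (SE 0.69), -0.61 (SE 0.32) and -0.33 (SE 0.18), with edgeR adjusted p values of 0.9239, 0.9327 and 0.9368. For Hist1h4b the difference of effects was -0.22 (SE 0.28), so its larger value at label CD8 was not shown to differ from that at label CD11b.

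Between the subset labels the histone genes differed in 1 direction. In WT, 15 of 56 members were lower at label CD11b than at label CD8 and 0 were higher, by edgeR as by DESeq2 and limma-voom for the higher ones; of all genes, 29.5% were called, 15.7% lower and 13.8% higher. In KO, 11 members were lower and 0 higher; of all genes, 22.8% were called, 12.5% lower and 10.3% higher. The share of members called (26.8% in WT and 19.6% in KO) was thus close to that of all genes, and the direction was uneven. The members' median log2 fold change was -0.40 in WT and -0.58 in KO, against 0.0032 and -0.0079 for all genes. Over the alternatives this median ranged from -0.51 to -0.22 in WT and from -0.62 to -0.50 in KO. In WT 11 members were above 0 (19.6%, against 50.2% of all genes), and in KO 3 were (5.36%, against 49.4%). In WT the libraries of label CD11b lay below all those of label CD8 for 16 members (28.6%, against 21.7% of all genes) and above them for 0 (against 19.8%). In KO, with fewer libraries, they lay below for 37 (66.1%, against 30.6%) and above for 1 (1.79%, against 28.1%).

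Each comparison depended on single libraries for its count. Of the 15 calls in WT, 7 were made without CD11b WT 2 and 6 without CD8 WT 3. In KO, 11 members were called with all libraries. Without CD11b KO 1 there were 5 calls, 3 of them among the 11, and without CD11b KO 2 there were 8, 5 of them among the 11. Without CD8 KO 1 there were 6 (5 among the 11), without CD8 KO 2 there were 4 (3 among the 11), and without both CD11b WT 1 and CD8 KO 2 there were 5 (4 among the 11).

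Called in both genotypes, which share no library, were 7 members: the linker histone genes Hist1h1c and Hist1h1e, the H2A gene Hist1h2ak, the H3 gene Hist2h3b and the H4 genes Hist1h4c, Hist2h4 and Hist4h4. These are 46.7% of the calls in WT and 63.6% of those in KO. Over all genes 2834 were called in both, 66.1% of the calls in WT and 85.6% of those in KO. Across the 56 members the log2 fold changes of both comparisons had a Pearson r of 0.051, a description across genes that share libraries and reads.

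Hist4h4, the H4 gene outside the other clusters, showed the largest difference of the 7 in KO. It was at 5.92, 4.90 and 12.7 CPM in CD11b WT and 19.9, 17.7 and 15.3 in CD8 WT, without overlap (-1.18 on the log2 scale, SE 0.33, edgeR adjusted p = 0.007446). In KO it was at 6.26 and 3.67 CPM at label CD11b and 12.02 and 15.6 at label CD8 (-1.48, SE 0.41, edgeR adjusted p = 0.01007).

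Hist2h4, an H4 gene of the Hist2 cluster, was at 7.90, 10.9 and 15.2 CPM in CD11b WT and 23.5, 19.0 and 23.3 in CD8 WT (-0.96, SE 0.24, edgeR adjusted p = 0.003972). In KO it was at 14.3 and 10.2 CPM against 25.8 and 23.5 (-1.01, SE 0.30, edgeR adjusted p = 0.01571). The labels did not overlap in either genotype. Hist1h4c, of the Hist1 cluster, fell from label CD8 to label CD11b by 0.70 on the log2 scale in WT (SE 0.20) and by 0.76 in KO (SE 0.25).

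Among linker histones, Hist1h1c was at 387, 314 and 403 CPM in CD11b WT and 436, 484 and 634 in CD8 WT (-0.49, SE 0.12, edgeR adjusted p = 0.002134). In KO it was at 341 and 403 CPM at label CD11b and 510 and 500 at label CD8 (-0.44, SE 0.14, edgeR adjusted p = 0.02874). Hist1h1e, which encodes H1.4, was at 153, 118 and 132 CPM in CD11b WT and 168, 160 and 200 in CD8 WT (-0.39, SE 0.11, edgeR adjusted p = 0.008738). In KO its levels were 112 and 113 CPM at label CD11b and 179 and 192 at label CD8 (-0.72, SE 0.14, edgeR adjusted p = 0.0002931). Both genes were lower at label CD11b without overlap in each genotype. Part of Hist1h1e overlaps Hist1h2be on the same strand, and reads that fall in more than 1 gene have a row of their own in the deposited tables.

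Hist2h3b was at 5.62, 6.19 and 3.35 CPM in CD11b WT against 9.83, 9.69 and 16.9 in CD8 WT (-1.26, SE 0.33), and at 6.86 and 5.58 in CD11b KO against 16.1 and 11.5 in CD8 KO (-1.15, SE 0.40). Only 20.3% of its 50-base windows were unique. Hist1h2ak was at 59.1, 51.1 and 65.4 CPM in CD11b WT and 57.1, 78.9 and 96.2 in CD8 WT, the 1 called member whose WT groups overlapped (-0.41, SE 0.15, edgeR adjusted p = 0.04791). The call of Hist1h2ak was not stable: of 20 alternatives, 7 kept it in WT and 14 in KO. On unstranded counts it was lost in both genotypes (edgeR adjusted p = 0.3622 in WT and 0.9808 in KO). The antisense gene Gm44454 overlaps Hist1h2ak. In WT the call was also lost with DESeq2, with limma-voom, with only the libraries compared and with most single libraries left out. The other losses in KO came from fits that left a single library in a KO group.

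Called in WT alone were 8 members, with log2 fold changes from -1.10 to -0.48: Hist1h2bb, Hist1h2be, Hist1h2bg, Hist1h3b, Hist1h3d, Hist1h4f, Hist1h4h and Hist1h1d. The H2B gene Hist1h2bb had the smallest p among all members in WT. It was at 28.7, 18.7 and 32.0 CPM in CD11b WT and 41.4, 51.7 and 61.2 in CD8 WT (-0.96, SE 0.19, edgeR adjusted p = 0.0003575). Called in KO alone were 4 members: Hist1h3a (-1.20, SE 0.32), Hist1h3f (-0.85, SE 0.25), Hist1h1b (-0.51, SE 0.16) and Hist1h2bf (-1.09, SE 0.38). A call in 1 genotype does not show a difference between genotypes, for which the test of the difference called 0 members.

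**Figure D5:**
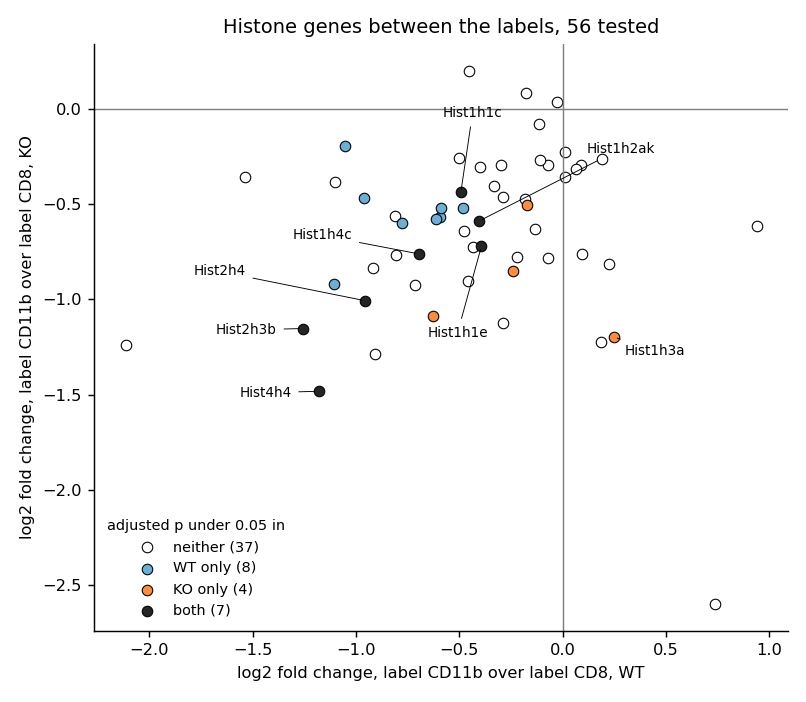
Log2 fold change of label CD11b over label CD8 in WT (x axis) and in KO (y axis) for the 56 tested histone genes; colours give the genotypes in which the edgeR adjusted p was under 0.05. Of the 56 points, 42 lie in the lower left, where label CD11b is the lower in both, and the 7 members called in both genotypes are named with Hist1h3a.

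The length of annotated transcript past the stem-loop was set beside these calls, with a limit of 100 bases chosen after the values were seen and without a test. Of 20 tested members with over 100 bases past it, 9 were lower at label CD11b in WT and 6 in KO. Of 17 with at most 100 bases, 4 and 2 were lower, and of 19 with no motif found, 2 and 3. The median log2 fold changes of these sets were -0.48, -0.30 and -0.40 in WT and -0.74, -0.60 and -0.38 in KO. The first set was also counted more deeply, with a median level of 18.4 CPM against 12.5 and 9.17, and the part of that depth in the calls was not tested.

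Genes that act with the histones were read from 5 lists. Between KO and WT, edgeR called 0 of their genes at either label. At an unadjusted p under 0.05 (6.42% of all genes at label CD11b and 6.52% at label CD8), label CD11b had 1 of 11 variants, 0 of 24 processing factors, 1 of 18 chaperones, 3 of 30 S phase genes and 2 of 15 mitosis genes; label CD8 had 1 variant and 1 chaperone. The counts between the labels are to be read against all genes, of which 13.8% were higher and 15.7% lower in WT, and 10.3% and 12.5% in KO. In WT, 1 of 24 factors for transcription, processing and decay of histone mRNA was higher at label CD11b and 6 were lower; in KO 2 were higher and 1 lower. Mif4gd, which helps translate histone mRNA together with Slbp, was lower at label CD11b in both (-1.04, SE 0.13 in WT and -1.12, SE 0.16 in KO). Cstf2, a cleavage factor, was higher (0.77, SE 0.13 and 0.83, SE 0.16). Slbp was at 50.7 to 64.0 CPM in CD11b WT and 72.9 to 83.2 in CD8 WT (-0.42, SE 0.13, edgeR adjusted p = 0.01832); in KO the edgeR adjusted p was 0.1434.

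S phase genes did not show the histones' uneven direction between the labels. Of 30 S phase genes, 2 were higher and 3 lower at label CD11b in each genotype, with medians of 0.098 in WT and 0.018 in KO. Their examples ran both ways: E2f2, a transcription factor of the cell cycle, gave -1.76 (SE 0.26) in WT and Gins2, a helicase subunit, 0.83 (SE 0.30). Of 15 mitosis genes 1 was lower in WT and 3 in KO, with medians of -0.16 and -0.27, and Cenpf, a kinetochore protein, was lower in both (-0.42, SE 0.12 and -0.63, SE 0.15). Of 18 histone chaperones, 1 was higher and 2 lower in each genotype, with medians of 0.0016 and -0.0065. Nasp, which holds H3 with H4 before assembly, was lower at label CD11b (-0.56, SE 0.14 and -0.54, SE 0.17), and Rbbp7, a histone-binding subunit of several complexes, was higher (0.62, SE 0.11 and 0.61, SE 0.14). The 11 replication-independent variants are also made outside S phase, mostly from polyadenylated mRNA. Of these 11, 2 were higher and 3 lower at label CD11b in WT, and 1 higher and 2 lower in KO. H3f3b, encoding H3.3, was lower (-0.46, SE 0.09 and -0.49, SE 0.12), and H2afy, encoding macroH2A, was higher (0.45, SE 0.08 and 0.46, SE 0.10).

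RNA of other cell types differed in level between the groups. Markers of red pulp macrophages were higher in CD8 KO than in CD8 WT without overlap in their sums, and the B cell sums overlapped. Plasmacytoid dendritic cell markers (7, none at 0) summed to 97.6 to 107.5 CPM in CD8 WT and 113.1 to 144.3 in CD8 KO, without overlap. Of these, 1, Cox6a2, was called higher (log2 fold change 4.66, SE 0.93, edgeR adjusted p = 0.03722). The other plasmacytoid markers ran both ways without a call. Ly6d (2.01) and Tcf4 (0.24) had log2 fold changes above 0. Siglech (-0.996), Ccr9 (-0.20) and Bst2 (-0.11) were below 0, and Klk1 was at 0. Monocyte markers (6, none at 0) were lower in CD8 KO without overlap, at 91.6 to 101.7 CPM against 112.7 to 135.8. The 14 B cell markers, all with counts, summed to 283 to 365 CPM in CD11b WT, 277 to 620 in CD11b KO, 580 to 1176 in CD8 WT and 1048 to 2816 in CD8 KO, the highest in CD8 KO 2. The 10 red pulp macrophage markers, none at 0, summed to 149 to 186, 180 to 204, 266 to 357 and 438 to 451 CPM in the same order. T cell markers (8, none at 0) reached at most 58.6 CPM, in CD8 KO, NK cell markers (6, with Klra8 at 0) at most 6.44 CPM and neutrophil markers (8) at most 6.16. The part of these cells in the histone values was not tested. Without CD8 KO 2, the log2 fold change of Hist1h4b at label CD8 was 0.96, without a call.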

How the data were processed

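Total RNA (7 ng per library) had been made into strand-specific libraries, per the labels' protocols. Per the submitters' processing notes the build was GRCm38 and the aligner STAR 2.5.0a; annotation release, read length and trimming are not given in the sources used here. The deposited values are whole-number counts per gene, in 1 unstranded and 2 stranded columns. The stranded column that held 16.1 times the counts of its opposite was used. Rows naming no gene held, as shares of reads, 21.7% to 25.5% mapping to several loci, 33.1% to 41.4% outside genes, 0.47% to 0.56% ambiguous and 1.36% to 1.74% unmapped; they stayed out of library sizes.

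Symbols came from GENCODE M21, matching 53274 of 53379 identifiers. Genes passing filterByExpr (14528) were fitted with edgeR 4.0.16 (R 4.3.3) by quasi-likelihood over all 10 libraries as 4 group means, with TMM scaling, two-sided tests and Benjamini-Hochberg adjustment over all genes in each comparison, called under 0.05. CPM use TMM-scaled sizes. The 5 comparisons were KO against WT at each label, the difference of these effects, and CD11b against CD8 in each genotype; comparisons sharing a group share its libraries. Alternatives were RLE scaling, no filter (31563 genes), 1 CPM in 3 libraries (13162), unstranded counts, 14 mitochondrial and ribosomal RNA genes removed, DESeq2 1.42.0, limma-voom 3.58.1 with quality weights, libraries left out, only the libraries compared, and a replicate block. The code was tested on simulated counts. Atg16l1 is named in every group; all called members are named, and in comparisons with under 5 calls the 5 of lowest p, with the 3 highest per kilobase in each class and at most 4 genes per other list. Members and lists were chosen with earlier results of these data known. With 2 to 3 libraries a group, p-values rest on the spread between libraries within groups, estimated over all 4 groups together. In it, differences between mice and between preparations cannot be told apart.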

Additional observations from a re-analysis of the deposited data

Results flagged for a closer look

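Counts on the strand opposite to a histone gene lie outside the comparisons above. Over the 10 libraries, 7 members had at least 100 such counts, a limit set after the values were seen. Hist1h2bg had 544 opposite-strand counts against 3541 in sense, Hist1h2bh 187 against 1473, Hist1h1c 173 against 49837, Hist1h3g 167 against 749, Hist3h2a 150 against 526, Hist1h2ae 133 against 177 and Hist1h2ab 119 against 1246. An annotated gene lies on the opposite strand of Hist3h2a (Gm44313), Hist1h2ae (Gm44394) and Hist1h2ab (Gm44484), and none on that of the other 4. Over all members, sense counts were 77.0 times the opposite-strand counts, against 16.1 over all genes, and no member had more counts on the opposite strand than in sense.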

How the results depend on the processing

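The count of members higher in KO at label CD11b, 0, became 1 (Hist1h4b) with no filter on low counts. At label CD8 the count of 1 ranged from 0 to 1 with 1 library left out, and was 0 without both CD11b WT 1 and CD8 KO 2. The 15 members lower at label CD11b in WT ranged from 6 to 17 with 1 library left out, and the 11 in KO from 4 to 15; without both CD11b WT 1 and CD8 KO 2 the latter were 5. With unstranded counts the mean summed CPM of the KO groups moved beyond its SD, to 1256 at label CD11b and 1800 at label CD8. Without mitochondrial and ribosomal RNA genes it moved to 1547 and 2179. The SD at labels CD11b and CD8 was 9.22 and 16.3 CPM in KO but 275 and 376 in WT. The WT means stayed within their larger SD, so this rule does not set KO apart. The cause of these changes was not tested, beyond fewer libraries or more genes tested where an alternative has them. Libraries left out were refitted on the same 14528 genes. Same-numbered libraries of a genotype correlated at 0.018 to 0.049 across the labels in their deviations from group means, so the numbers were not taken as pairs. With the replicate number as a block, which ties WT and KO mice by number only, the counts were 0 and 1 higher in KO at labels CD11b and CD8. Between the labels the block was genotype with number, as if same-numbered libraries shared a mouse. There, 17 (WT) and 16 (KO) members were lower at label CD11b. Over all genes, the 21 calls of each KO comparison ranged from 13 to 71 at label CD11b and from 7 to 142 at label CD8, and the 3 calls in the difference of effects from 3 to 41. Directions were followed for called members and, in comparisons with under 5 calls, for the 5 of lowest p. None of these changed direction under an alternative that tested it. Other members named above were not followed in this way. Atg16l1 changed sign between the labels in KO and in the difference of effects, where it was not called. Single genes are limited by reads shared between near-identical copies and, at low counts, by depth.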
